A study of Mus musculus with 2 samples.

Results

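The genes of the interleukin-12 family, Il12a, Il12b, Il23a, Il27 and Ebi3, were followed in the ATAC-seq peak lists of mouse bone marrow-derived macrophages (BMDMs). A peak belonged to the family when, of all protein-coding RefSeq gene ends on the mm10 build, the one nearest to its summit was an end of one of these 5 genes and lay within 100 kb. This gave 15 of 77060 peaks in the untreated list and 11 of 37725 peaks in the R848 list, at 5 of 21887 genes. ATAC-seq maps accessible chromatin by letting the Tn5 transposase cut and tag DNA, and a peak is a site where the tags pile up. Both libraries came from wild-type bone marrow cells grown with M-CSF at 20 ng/ml. The untreated group was 1 library at 0 h, and the R848 group was 1 library from cells exposed for 2 h to 100 ng/ml of R848 (resiquimod), a synthetic agonist of the endosomal Toll-like receptor 7. How many animals gave the marrow was not given in the sources used here.

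With 1 library per group there is no replicate error, and a peak present in one list and absent from the other is a description, with no test behind it. Peaks without an overlap of at least 1 bp with the other list are called R848-only and untreated-only. Peak strength is given in 2 ways, both within a library. The fold is the authors' value for the pileup at the summit over the local background, and the pileup in tags was recovered from the deposited fold and p. Exact Poisson 95% intervals on tags cover counting error only, and a summit is picked for its height. The smallest pileup called in the untreated list was 4 tags and in the R848 list 5 tags, at a genome-wide background of 0.968 and 1.36 tags, and the part of depth in what each list holds was not tested. All 8 macrophage markers, among them Csf1r, Adgre1 and Cd68, had a peak in each list, beside 63.1% of all protein-coding genes with an R848 peak and 69.5% with an untreated peak. Of markers of other cells, an R848 peak was assigned to 2 of 6 for T and NK cells, 3 of 4 for B cells, 3 of 5 for neutrophils and 3 of 5 for dendritic cells, and an untreated peak to 3, 1, 3 and 2 of them. Cd3e, Cd8a, Ncr1, Elane, Zbtb46 and Clec9a had none in either list, as was so for 4344 of all 21887 protein-coding genes.

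The family consists of secreted cytokines built from a helical alpha subunit paired with a receptor-like beta subunit. Il12a, Il23a and Il27 encode alpha subunits and Il12b and Ebi3 encode beta subunits. Il12a with Il12b forms interleukin-12, which drives interferon gamma production and T helper 1 responses. Il23a with Il12b forms interleukin-23, which sustains interleukin-17-producing T cells, Il27 with Ebi3 forms interleukin-27, which both promotes and restrains T cell responses, and Il12a with Ebi3 forms interleukin-35. Macrophages and dendritic cells stimulated through Toll-like receptors are a major source of interleukin-12, interleukin-23 and interleukin-27. NF-kB, interferon regulatory factors, C/EBP factors and PU.1 are known to act at the genes of these cytokines.

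The 2 strongest family peaks of the R848 list lay at the beta subunit genes and at different kinds of position. The Ebi3 peak lay over the transcription start, and the strongest Il12b peak lay upstream of the gene while the Il12b promoter had no peak in either list. The promoters of both genes are therefore shown, as RefSeq windows of GRCm38.p6 (mm10), both on the plus strand, from 250 bases before to 50 after the start. The Ebi3 window is chr17:55952373-55952672 and the Il12b window is chr11:44399813-44400112. Capitals mark matches to the motifs searched.
Ebi3: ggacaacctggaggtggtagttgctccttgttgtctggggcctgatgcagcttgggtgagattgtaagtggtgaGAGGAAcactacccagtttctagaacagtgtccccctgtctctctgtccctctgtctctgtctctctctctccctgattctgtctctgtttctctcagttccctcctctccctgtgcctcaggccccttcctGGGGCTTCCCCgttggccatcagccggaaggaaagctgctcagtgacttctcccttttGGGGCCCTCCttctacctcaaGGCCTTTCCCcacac
Il12b: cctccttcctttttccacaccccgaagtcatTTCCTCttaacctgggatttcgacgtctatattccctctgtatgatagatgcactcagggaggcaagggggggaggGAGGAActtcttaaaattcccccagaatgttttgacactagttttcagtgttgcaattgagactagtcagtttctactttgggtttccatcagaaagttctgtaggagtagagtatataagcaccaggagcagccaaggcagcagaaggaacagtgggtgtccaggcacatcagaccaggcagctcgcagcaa

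The last 131 bases of the Ebi3 window lay inside the R848 peak, and no untreated peak was nearer to the window than 6455 bp. At the Il12b window the nearest R848 peak was 9286 bp away and the nearest untreated peak 12973 bp away. The RefSeq table also held 2 windows for the 2 starts of Il12a, at chr3:68690394-68690693 and chr3:68691174-68691473. Neither had a peak, with the nearest R848 peak 13213 bp and the nearest untreated peak 8015 bp from the first of them. Thus 1 of the 4 family windows had an R848 peak and none had an untreated peak. These windows belong to 3 of the 5 genes, since Il23a and Il27 had no window. Over all 32851 RefSeq windows, 25.2% had an R848 peak, 18.2% an untreated peak, and 9.02% an R848 peak without an untreated one.

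The Ebi3 window held a match to a narrow NF-kB motif (GGG, 2 free bases, TT, 1 free base, CC) 44 bases before the start, inside the part that the R848 peak covered. This motif, searched on both strands like the others, was present in 4.79% of all windows and in 1 of the 4 family windows. A wide form with 5 free bases between GGG and CC, which includes the narrow one, was in 50.8% of all windows and in 2 of the family's, at Ebi3 and at the second Il12a start. The Il12a matches began 113 bases before and 18 bases after that start, with a further match on the minus strand shifted by 1 base from the former. The PU.1 core GAGGAA was in 28.3% of all windows, and it occurred in the Ebi3 window 176 bases before the start and in the Il12b window on the plus strand 143 and on the minus strand 219 bases before the start. The AP-1 motif TGANTCA, the C/EBP motif TTGCNNAA, the CRE TGACGTCA, the TATA box TATAAA and an interferon response element (2 GAAA blocks with 2 free bases between them) matched none of the 4 windows. They were present in 7.81%, 10.8%, 1.79%, 13.6% and 3.44% of all windows. Only full matches to the given strings counted, so a window without a match may still hold a near match.

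Across the family, 10 of the 11 R848 peaks were R848-only, or 90.9% (95% Wilson interval 62.3 to 98.4%), beside 69% of all R848 peaks. Of the 15 untreated peaks 14 were untreated-only, or 93.3% (70.2 to 98.8%), beside 84.7% of all untreated peaks. Both intervals include the share of the whole list. They cover counting error only and take the peaks as independent, though several are neighbours at the same gene. Each of the 5 genes had an R848 peak, as 63.1% of all protein-coding genes did. Each also had an R848-only peak, as 47.2% of all genes did, and 3 of the 5 had an untreated-only peak, as 56.9% of all genes did. The untreated peaks were those of Il12a, Il12b and Il27. Of these 3 genes with peaks in both lists, Il12b and Il27 had no overlap between them, as 34.7% of all genes with peaks in both lists did. The summit was within 1 kb of a gene end in 3 of the 11 R848 peaks, 2 at Il23a and 1 at Ebi3. Of all R848 peaks assigned to a gene, 27.6% were so placed. The 3 family peaks were all R848-only, as were 41.5% of all R848 peaks within 1 kb of a gene end. The family had a median of 2 R848-only peaks per gene, beside 0 for all genes, and a median of 1 untreated-only peak, the same as for all genes.

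**Figure D1:**
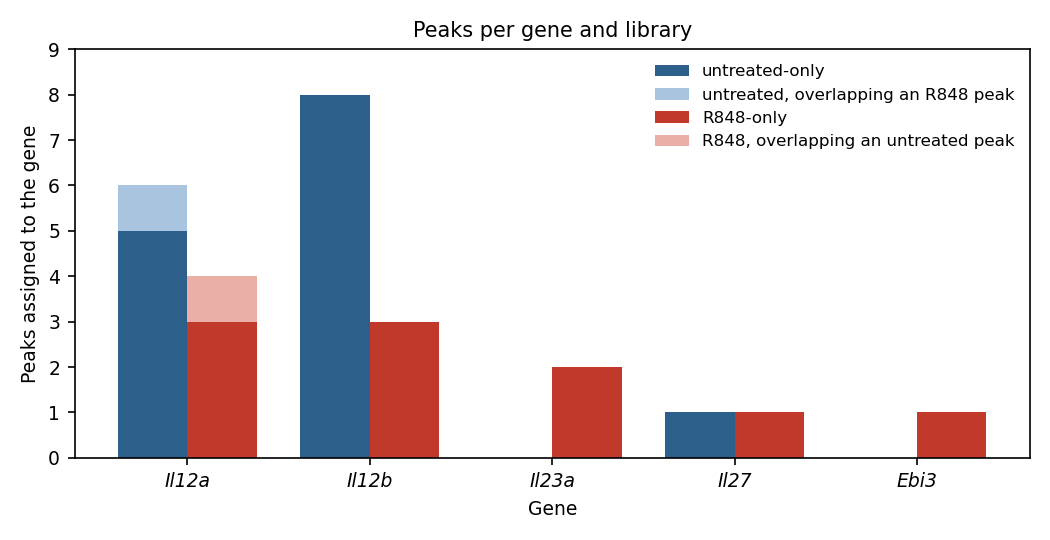
Peaks assigned to each gene (vertical axis, number of peaks) in the untreated library (blue) and the R848 library (red), 1 library each. Dark parts are peaks without overlap in the other list and pale parts are overlapping peaks, which occur at Il12a alone, with 1 in each list; Il23a and Ebi3 have no untreated peak.

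The beta subunit gene Il12b (RefSeq gene 16160, chromosome 11, 44400063 to 44414677, plus strand) had 3 R848 peaks and 8 untreated peaks, none of them overlapping. A count of 3 or more R848-only peaks was found at 10.3% of all protein-coding genes, and a count of 8 or more untreated-only peaks at 4.38%. All 3 R848 peaks lay upstream of the start, and their strength increased towards the gene. The farthest, at chr11:44357301-44357560, had its summit 42616 bp upstream, with a fold of 3.36 and 7 tags (95% interval 2.81 to 14.4). Its −log10 q was 1.17, which is a q above 0.05. The middle one, at chr11:44377948-44378206, lay 21992 bp upstream with a fold of 4.03 and 9 tags (4.12 to 17.1).

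The nearest R848 peak of Il12b, at chr11:44390065-44390526, was the strongest of the family. It held 19 tags (11.4 to 29.7) over a local background of 1.54, a fold of 7.87 and a −log10 q of 11.4, and it stood at percentile 94.5 of the R848 list by fold. Its summit was 9820 bp upstream of the start, and no untreated peak lay within 3225 bp of it. An inducible enhancer of Il12b has been described at a similar distance upstream in macrophages. Of all R848 peaks with a −log10 q of at least 5 and no gene end within 1 kb of the summit, 32.5% were R848-only.

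The untreated peaks of Il12b lay in other places. They held 5 to 9 tags with folds of 3.05 to 3.56, beside a median fold of 3.56 over the untreated list. A group of 3 had summits 14165, 13751 and 13350 bp upstream, with 6, 5 and 6 tags and folds of 3.56, 3.05 and 3.56. The nearest of these, at chr11:44386518-44386839, was the untreated peak closest to the strong R848 peak. Another group of 3 lay 93363, 88430 and 87860 bp upstream with 7, 9 and 8 tags. The remaining pair held 6 tags each, 1 at 40221 bp upstream and 1 with its summit 147 bp beyond the far end of the gene. No Il12b peak of the untreated list exceeded percentile 53.3 of that list by fold, and none had its summit inside the gene, which held no R848 summit either.

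The other beta subunit gene, Ebi3 (RefSeq gene 50498, chromosome 17, 55952623 to 55957022, plus strand), had 1 R848 peak and no untreated peak. The peak, at chr17:55952542-55952977, spanned the start and had its summit 89 bp inside the gene. It held 16 tags (9.15 to 26.0) over a local background of 1.72, with a fold of 6.25, a −log10 q of 7.67 and percentile 89.3 of the R848 list by fold. An R848-only peak together with no untreated peak was found at 10.3% of all protein-coding genes, and an R848-only summit within 1 kb of a gene end at 14.3%. Of all R848 peaks with a −log10 q of at least 5 and a summit within 1 kb of a gene end, 13.7% were R848-only.

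Peaks on both sides of Ebi3 were present in both lists. The Yju2 peak, 2211 bp beyond the far end of Ebi3, had a fold of 5.22 and 18 tags in the R848 list and a fold of 3.56 and 6 tags in the untreated list. The Zfp119b peak, 7248 bp before the start of Ebi3, had a fold of 6.36 and 14 tags with R848 and a fold of 6.10 and 11 tags without. Folds of the 2 lists are set side by side here and were not compared, since each is relative to its own library.

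**Figure D2:**
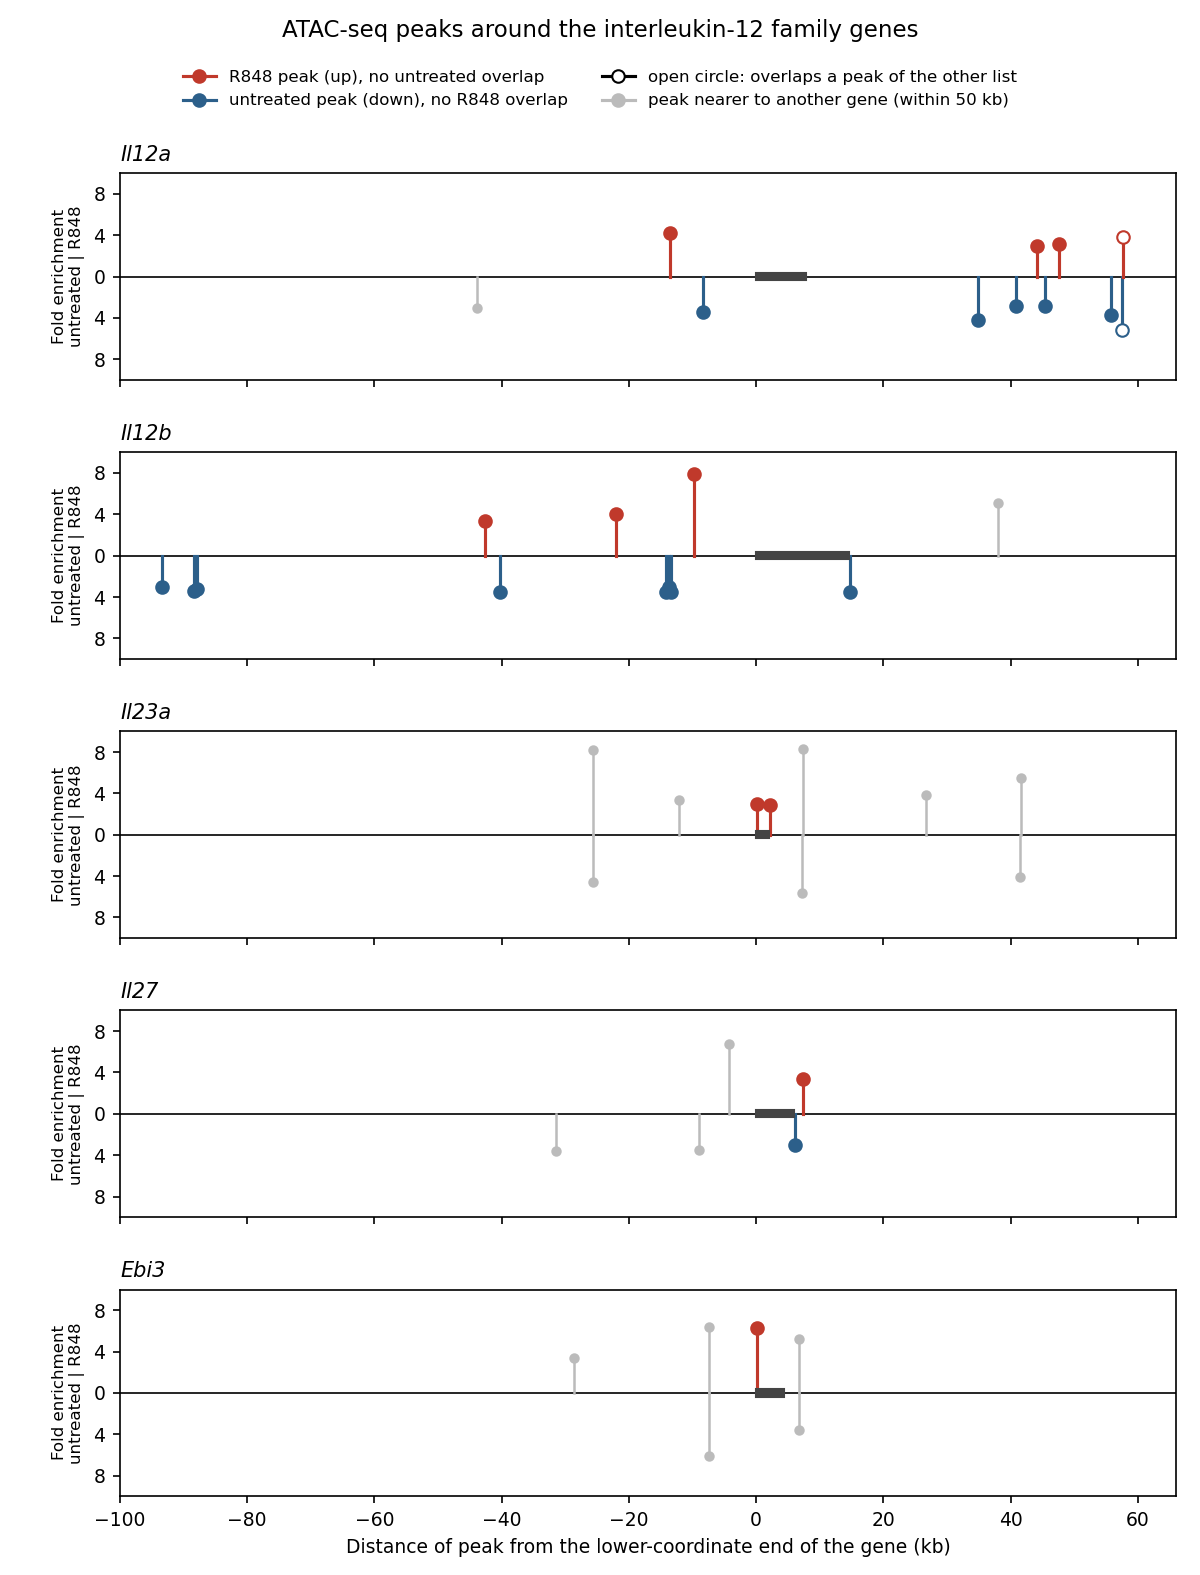
Fold enrichment of each peak (vertical axis; R848 upwards, untreated downwards, each within its own list) against its distance in kb from the lower-coordinate end of the gene (horizontal axis), with the gene as a black bar. Coloured points are placed at the summit and grey points, for peaks nearer to another gene, at the middle of the peak; the highest coloured points are the Il12b peak 9820 bp upstream (fold 7.87) and the Ebi3 peak at the start (fold 6.25).

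The alpha subunit gene Il12a (RefSeq gene 16159, chromosome 3, 68690644 to 68698550, plus strand) had 4 R848 and 6 untreated peaks, most of them beyond the far end of the gene. It alone of the 5 genes had peaks of the 2 lists that overlapped. In the untreated list the overlapping peak spanned chr3:68748047-68748560 with 12 tags (6.20 to 21.0) and a fold of 5.12, percentile 91.8 of its list. In the R848 list it spanned chr3:68748201-68748400, wholly inside the untreated peak, with 8 tags (3.45 to 15.8) and a fold of 3.81, percentile 55.3.

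The R848-only peaks of Il12a numbered 3. The strongest, at chr3:68676878-68677180, had its summit 13576 bp upstream of the first start, with 9 tags (4.12 to 17.1), a fold of 4.24 and percentile 72.2. The other 2 lay 36178 and 39728 bp beyond the far end with 7 tags each and folds of 2.92 and 3.12. Both were weak, at percentiles 11.5 and 28.1, with −log10 q of 0.64 and 0.93, which is a q above 0.05. Upstream, the untreated list held a peak of 6 tags 8401 bp before the start, 4957 bp from the R848 peak. Downstream, untreated-only summits lay 27044, 32918, 37452 and 47882 bp beyond the gene with 13, 12, 11 and 8 tags, over local backgrounds of 2.30, 3.52, 3.16 and 1.40. Both lists thus held several peaks in the same downstream stretch, and 1 pair of them coincided.

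Il23a (RefSeq gene 83430, chromosome 10, 128296140 to 128298084), the alpha subunit of interleukin-23, had 2 R848-only peaks and no untreated peak. They lay at the 2 ends of this short gene. The peak at chr10:128296189-128296393 was inside the gene, 126 bp from the lower-coordinate end, with 7 tags (2.81 to 14.4) and a fold of 3.01. The peak at chr10:128298195-128298488 was 230 bp beyond the other end, with 8 tags (3.45 to 15.8) and a fold of 2.90. Both were weak, at percentiles 26.3 and 11.1 of the R848 list, with −log10 q of 0.77 and 0.76, which is a q above 0.05. The strong peaks around Il23a lay at the ends of neighbouring genes and were in both lists. The peak 53 bp from the end of Pan2 and 5196 bp from Il23a had a fold of 8.28 and 26 tags in the R848 list. The peak 98 bp from the end of Stat2, a signal transducer of interferon receptors, had a fold of 8.17 and 24 tags.

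Il27 (RefSeq gene 246779, chromosome 7, 126589009 to 126595035), the alpha subunit of interleukin-27, had 1 peak in each list, 917 bp apart. The untreated peak at chr7:126595025-126595224 had its summit 141 bp beyond the higher-coordinate end, with 5 tags (1.62 to 11.7) and a fold of 3.05. The R848 peak at chr7:126596142-126596470 had its summit 1377 bp beyond the same end, with 7 tags (2.81 to 14.4) and a fold of 3.39. Neither had a q at or under 0.05, and their percentiles were 25.1 and 42.0. A stronger R848-only peak lay on the other side of the gene at chr7:126584521-126584905, 4296 bp from Il27, with a fold of 6.78, 15 tags and a −log10 q of 8.12. By the rule it went to Apobr, the apolipoprotein B receptor gene, whose end was 205 bp from the summit. The fold of this peak was higher than the 6.25 of the Ebi3 peak, which the rule gave to the family.

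**Figure D3:**
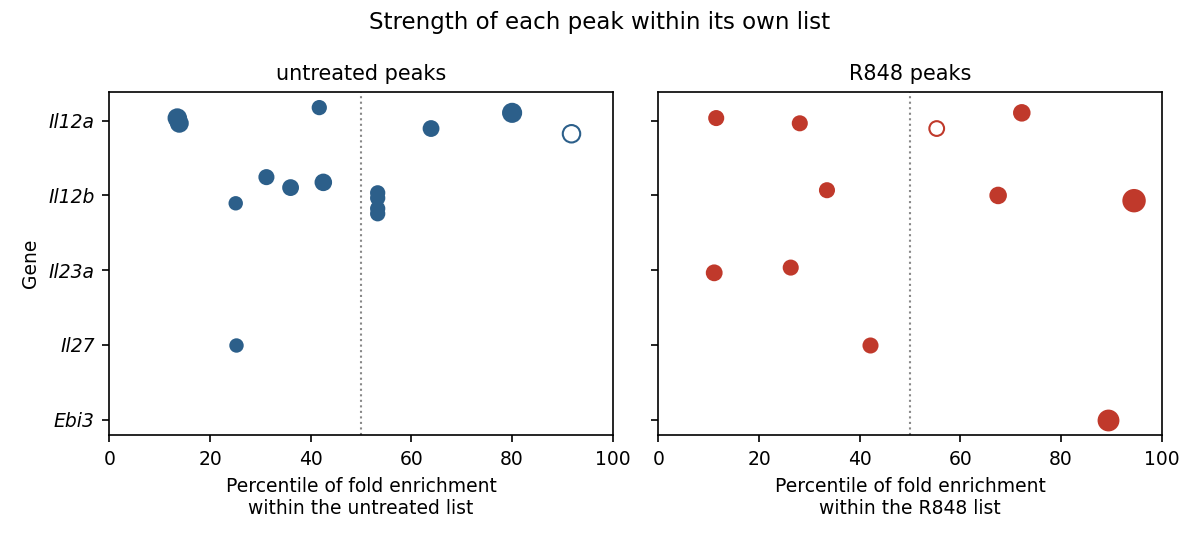
Percentile of each family peak by fold within its own list (horizontal axis; untreated left, R848 right) for each gene (vertical axis), with larger points for more tags, open points for the Il12a peak found in both lists, and a dotted line at the median of the list. The Il12b peak at percentile 94.5 and the Ebi3 peak at 89.3 stand highest in the R848 list, while the Il23a peaks are at 26.3 and 11.1.

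As a set, the family's peaks were of ordinary strength in both lists. Those of the R848 list held 7 to 19 tags with a median of 8, as in the whole list, and their folds ran from 2.90 to 7.87 with a median of 3.39, beside 3.44 over the list. Those of the untreated list held 5 to 13 tags with a median of 7, also that of the whole list, and their folds ran from 2.88 to 5.12 with a median of 3.42, beside 3.56. A q at or under 0.05 was reached by 5 of the 11 R848 and 11 of the 15 untreated peaks, while 48.2% of all R848 and 36.5% of all untreated peaks had a q above it. A −log10 q of at least 5 was reached by 2 R848 peaks, those of Il12b and Ebi3, and by none of the untreated peaks, beside 16.6% of all R848 and 6.13% of all untreated peaks. Both were R848-only, as were 21.6% of all R848 peaks of that strength.

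The genes differ in how much of the genome the rule gives them. The stretch nearest to their ends was 125.5 kb for Il12a and 134.6 kb for Il12b, which have 2 and 1 other protein-coding genes with an end within 100 kb. It was 18.7 kb for Il27, 10.4 kb for Ebi3 and 6.2 kb for Il23a, which have 9, 11 and 13 such neighbours, against a median of 46.4 kb over all genes. Per 100 kb of that stretch, the 5 genes together had 3.39 R848-only and 4.74 untreated-only peaks, beside 1.14 and 2.25 over all genes. Both kinds of peak were thus denser here. Il12b had 2.23 R848-only and 5.95 untreated-only peaks per 100 kb and Il12a had 2.39 and 3.98. Il23a, with 2 weak peaks on its short stretch, had 32.2 R848-only peaks per 100 kb.

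Il12a and Il12b tied for the most R848-only peaks, and the genes most like them in the numbers of R848-only, untreated-only and overlapping R848 peaks were sought over the 2 libraries. The same 3 numbers were found at 23 other genes for Il12a and at 19 for Il12b, of 21887 in all. Ordered by the fold of the strongest R848-only peak, those nearest to Il12b were Iftap (fold 8.20), Gm21573 and Gm7361 (4.24 each), beside 7.87 for Il12b. Those nearest to Il12a were Eps8, Nek10 and Ptprd, all with 4.24 like Il12a.

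Of the 5 receptor genes of the family, 2 had an R848-only peak, beside 47.2% of all genes. Il27ra, the receptor of interleukin-27, had 1 R848-only peak and no other peak, and Il6st, the receptor chain gp130 that interleukin-27 shares with interleukin-6, had 1 R848-only, 2 untreated-only and 3 overlapping R848 peaks. Il12rb1, the receptor chain common to interleukins 12 and 23, had 2 overlapping peaks alone, and Il12rb2 and Il23r, their specific chains, had 3 and 8 untreated-only peaks and no R848 peak. Of the 6 kinase and STAT genes that act behind these receptors, 5 had an R848-only peak, with 2 at Stat4. All 6 had a peak in both lists, as did 11471 of all 21887 protein-coding genes. Of 21 genes of transcription factors that act at the cytokine genes, 16 had an R848-only peak, with 8 at Cebpb, 5 at Spi1, which encodes PU.1, and 3 each at Batf3, Fos, Maf and Nfkb1. Their median was 2 R848-only peaks, as in the cytokine genes, and 0 untreated-only peaks, beside 0 and 1 for all protein-coding genes. Rel, which encodes the NF-kB subunit c-Rel, had no R848-only peak and 1 overlapping peak, and Irf3 had no peak in either list.

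**Figure D4:**
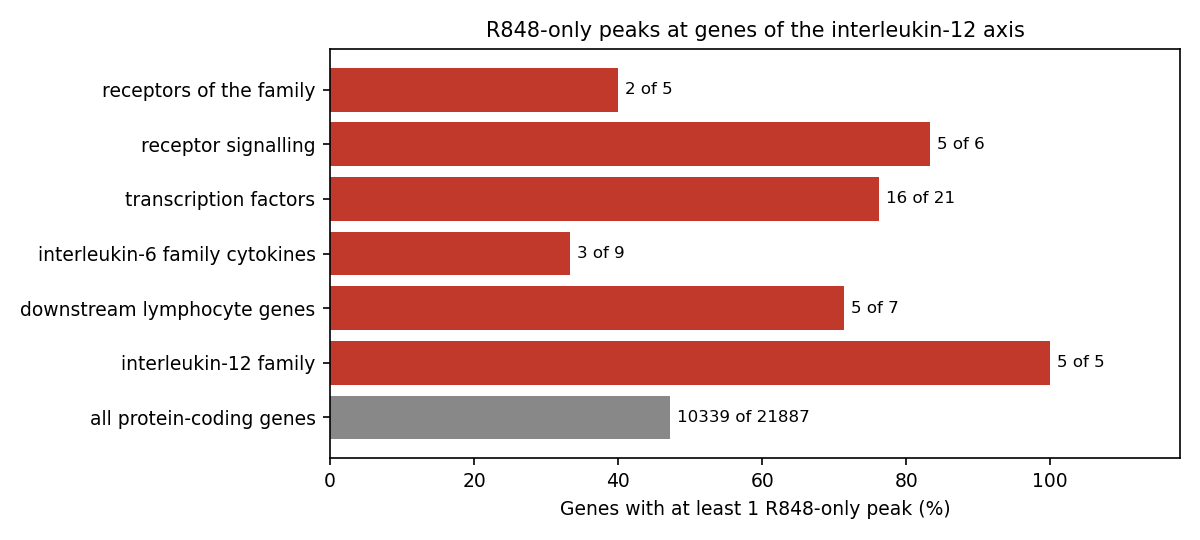
Percentage of genes with at least 1 R848-only peak (horizontal axis) in the cytokine family, its receptors, signalling genes, transcription factors, related cytokines and downstream genes (red), and in all protein-coding genes (grey), with the counts at the bars. All 5 family genes have such a peak, beside 47.2% of all genes, and 2 of the 5 receptor genes do.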

How the data were processed

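Per the submitters' processing notes, reads were handled with bcl2fastq 2.19, Bowtie2 2.2.6 and MACS2 2.2.7.1 on mm10; the sources used here do not give settings, read filters, duplicate handling, Tn5 shift or read totals. The authors deposited 1 peak list per library, with a fold (a ratio over the background of the same library), −log10 p and q values and a score (10 times the −log10 p, not used). Every listed −log10 p exceeded 2 (lowest 2.006), and no q filter was seen.

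The pileup was solved from (pileup + 1)/(background + 1) = fold together with the Poisson tail, within 0.1% of −log10 p, for 99.9% of peaks in each list. Summits were given to the nearest end of 21887 protein-coding genes within 100 kb. The RefSeq gene table gives no exons. Strand came from the promoter windows, which 3 of the 5 genes had. Overlap meant at least 1 bp. Python 3.11.15 was used with scipy 1.17.1, numpy 2.4.6, pandas 2.3.3 and, for plots, matplotlib 3.10.9, and overlap and assignment were tested on simulated data, the former against bedtools 2.31.1.

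The genes, lists, motifs and alternatives were chosen with earlier results of these data known. All 5 genes were named with all their peaks. From each other list up to 3 genes were named by their number of R848-only peaks, and others there were chosen after their values were seen. Likeness was the Euclidean distance over the 3 counts. The planned comparisons had no test, since each group is 1 library. The alternatives changed the distance limit, the assignment, the q threshold, the list length and the overlap.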

Additional observations from a re-analysis of the deposited data

How the results depend on the processing

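No paired analysis was possible because each group is 1 library. The 10 R848-only and 14 untreated-only peaks became 6 and 6 with gene ends within 20 kb. There the percentage of R848 peaks that overlapped an untreated peak was 0 in place of 9.09. These were all the family peaks left in each list, while over all peaks 69% were R848-only and 84.7% untreated-only. At a −log10 q of at least 1.3 in both lists, 5 R848 peaks of the family were left, of which 4, at 3 genes, were R848-only, with none at Il23a or Il27, and the overlap was 20.0%; over all peaks 59.6% were R848-only and 83.7% untreated-only. At a −log10 q of at least 5 there were 2 R848-only peaks at 2 genes (Il12b and Ebi3), 0 untreated-only peaks, since no untreated peak of the family reached that threshold, and an overlap of 0%; over all peaks 65% were R848-only and 53.4% untreated-only. At either q threshold the share of all genes with an R848-only peak was not computed. With the untreated list reduced to the length of the R848 list, untreated-only peaks numbered 7 of 8, beside 76.5% over all peaks of that list. With an overlap of at least 0.5 of each peak required, the overlap was 0%, since the Il12a pair no longer counted. Over all peaks 79.8% were then R848-only and 90.1% untreated-only. When a peak counted for every family gene within 50 kb, R848-only peaks numbered 15 of 21 and the overlap was 28.6%, as neighbours' peaks came in. The share of all R848 peaks that were R848-only stayed at 69%. Assigning by gene body, or allowing a gap of 500 bp, changed none of these totals. With the gap, 64.3% of all R848 peaks were R848-only and 81.8% of all untreated peaks untreated-only. Of 80 counts for single genes under the 8 alternatives, 57 stayed within 1.5 times the value given and 23 did not. The 57 include the untreated-only counts of Il23a and Ebi3, which were 0 under every setting. They also include every single-gene count under the gene-body and 500 bp alternatives, which changed none. Of the family-wide results under the alternatives, 21 stayed and 11 moved. For the overlap percentage, staying meant a value inside its Wilson interval. A peak of 5 tags has a 95% interval of 1.62 to 11.7 tags, which spans the smallest pileup called in either list, 4 and 5 tags.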

Other observations

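Genes of related cytokines and of the lymphocyte responses that these cytokines steer were counted as well. Of 9 cytokine genes of the interleukin-6 family, 3 had an R848-only peak: Lif, leukaemia inhibitory factor, with 2, and Osm, oncostatin M, and Clcf1 with 1 each. Il6 had 5 untreated-only peaks and no R848 peak. Of the 9 genes, 4 had no peak in either list, beside 4344 of all 21887 protein-coding genes. Of 7 genes downstream of interleukins 12 and 23 in lymphocytes, 5 had an R848-only peak. Ifng, which encodes interferon gamma, had 2 R848-only and 5 untreated-only peaks, Il17a had 1 and 2, and Tbx21, the T helper 1 transcription factor, had 1 and 1. Over all protein-coding genes 47.2% had an R848-only peak.

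An R848-only peak lay between Il12b and Ublcp1, a phosphatase gene, at chr11:44437848-44438204, with a fold of 5.09, 11 tags and a −log10 q of 4.31. It was 23331 bp from the end of Il12b and 16563 bp from Ublcp1, to which the rule gave it.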
